A study of Mus musculus with 4 samples.

Results

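The cytochrome P450 genes of families 1 to 4 were followed in mouse liver over the age classes of 3, 9, 15 and 21 months. The members were all gene symbols of the deposited count tables that start with Cyp, a family number from 1 to 4, a subfamily letter and a gene number. This gave 82 of 33924 gene symbols, in 21 subfamilies. All 82 were found in the GENCODE M1 annotation of the mouse assembly NCBIM37, where 78 were protein-coding and 4 were pseudogenes. There was 1 library per age, each from a pool of liver RNA of 24 C57BL6 mice (C57BL/6Rj in the study's methods), with 4 male mice at each of 6 times of day and 1 μg of RNA from each mouse. No genetic change or treatment is given for these mice, and the groups are set by age. Reads of 35 bases were taken from the capped 5′-ends of transcripts. Since no age has a replicate library, age and pool cannot be told apart, and every interval given here covers counting error only. The standard errors of the linear age fit also take in spread between libraries.

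Cytochrome P450 enzymes are heme proteins of the endoplasmic reticulum that put an oxygen atom into fat-soluble molecules, with electrons passed on by P450 oxidoreductase. Liver is their main site, and many of them are made by the hepatocytes around the central vein. Families 1, 2 and 3 are best known for the oxidation of drugs, toxins, steroids and polyunsaturated fatty acids, and family 4 for the hydroxylation of fatty acids and eicosanoids at the end of the chain. Their genes are switched on by nuclear receptors and related factors, among them AHR for the Cyp1 genes, CAR and PXR for Cyp2b, Cyp2c and Cyp3a genes and PPARα for Cyp4a genes. In mice, growth hormone makes some of them male-predominant and others female-predominant.

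Many P450 genes arose by tandem duplication, and neighbours can be almost identical. Stretches from the Cyp2c cluster of chromosome 19 are printed here, since genes of this cluster differed from the 3 month library in opposite directions. They were picked by direction and do not show how alike neighbours are. The stretches before the RefSeq start are given for 2 genes that were lower and 2 that were higher in some or all older libraries. They are placed on NCBIM37, without bases that an annotated exon of the gene covers. A link between motifs and direction was not tested. Capital letters mark the motifs TATAAA, the core of a TATA box, and CAAAGTCCA, a binding motif of the hepatocyte factor HNF4A.
Cyp2c29, at chr19:39361425-39361574 on the plus strand: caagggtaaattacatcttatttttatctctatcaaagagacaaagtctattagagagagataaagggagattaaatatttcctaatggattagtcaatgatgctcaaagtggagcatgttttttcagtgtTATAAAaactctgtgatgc
Cyp2c38, at chr19:39537566-39537715 on the minus strand: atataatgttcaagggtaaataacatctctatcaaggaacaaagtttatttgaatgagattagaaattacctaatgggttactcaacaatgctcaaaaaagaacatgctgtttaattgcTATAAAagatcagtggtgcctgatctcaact
Cyp2c37, at chr19:40066764-40066908 on the plus strand: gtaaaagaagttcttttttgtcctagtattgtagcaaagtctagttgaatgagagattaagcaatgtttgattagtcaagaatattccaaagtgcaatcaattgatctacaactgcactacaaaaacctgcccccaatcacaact
Cyp2c70, at chr19:40261824-40261926 on the minus strand: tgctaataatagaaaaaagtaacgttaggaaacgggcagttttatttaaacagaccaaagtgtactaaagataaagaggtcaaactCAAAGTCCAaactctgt
The stretch of Cyp2c29 lies within an intron of a longer annotated transcript of the gene, and the other 3 lie outside their gene. TATAAA began 19 bases before the RefSeq start in Cyp2c29 and 31 bases before it in Cyp2c38, and CAAAGTCCA began 64 bases before it in Cyp2c70. Cyp2c70 also held TATAAA, on the opposite strand, at 29 bases before its start, among 47 exonic bases that are left out of the printed stretch.

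The RefSeq promoter table (assembly GRCm38.p6) held 25 of the 33 members that reached 20 counts in a library. In the 250 bases before the start, read on both strands, TATAAA stood in 14 of these 25 members (56%), against 12.4% of all 32851 promoters of the table. Those of the Cyp2c subfamily were Cyp2c29, Cyp2c38, Cyp2c67 and Cyp2c70. A member with more than 1 promoter counted if any of them held the motif, which can raise the share of members. The share of all promoters counts each promoter once. CAAAGTCCA stood in 4 members (16%), Cyp2c67, Cyp2c68, Cyp2c70 and Cyp3a11, against 0.384% of all promoters. AGGTCA, the half-site of many nuclear receptors, stood in 6 members (24%), against 14.0% of all promoters. TTCNNNGAA, the STAT motif, stood in 1 member (4%), Cyp4f13, against 7.02%, and TTATGTAA, the motif of the clock output factors DBP, TEF and HLF, in 0 members against 0.819%. The E-box CACGTG stood in 2 members (8%), Cyp2j6 and Cyp4v3, against 6.02% of all promoters. These are matches of letters only, and a missing match says only that the letters do not stand in this window.

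The 4 libraries held 955934, 958586, 525772 and 735962 counts on genes at 3, 9, 15 and 21 months, so the 15 month library was the shallowest and its values carry the largest counting error. For comparisons, counts were divided by a scale factor, the geometric mean over the 8704 genes with a count in every library, which is the centre of the centered log-ratio (clr), and the resulting values are called normalised counts. Liver identity was plain in all libraries, as 9 of the 10 hepatocyte markers were in the tables and their normalised counts summed to between 77051 (15 months) and 96067 (3 months). At 15 months 2 of these 9 markers, Ttr and Ahsg, were lower than at 3 months by the test described below for members. Marker sums over the 4 libraries lay between 702 and 913 for Kupffer cells and macrophages, between 376 and 506 for endothelial cells and between 283 and 475 for stellate cells and fibroblasts. They lay between 13.5 and 30.2 for cholangiocytes and between 12.4 and 36.5 for lymphocytes, of which Epcam and Ms4a1 had 0 counts in every library. The stellate sum was lowest in the 3 month library and the endothelial sum was highest in it, and the part of this in the results below was not tested. Markers of pericentral hepatocytes other than P450 genes summed to between 1330 and 1665 and periportal ones to between 4990 and 7944, both highest at 9 months.

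The members took 3.81% of all gene counts at 3 months (36398 counts, 95% Wilson interval 3.77% to 3.85%), 4.08% at 9 months (4.04% to 4.12%), 3.74% at 15 months (3.69% to 3.79%) and 3.64% at 21 months (3.60% to 3.69%). The interval at 9 months lies above all others and that at 21 months just below all others, while those at 3 and 15 months overlap. On the clr scale the sum of all members at 21 months was 0.932 times that at 3 months. Without Cyp2e1, the most abundant member, the share was 2.54%, 2.51%, 2.17% and 2.10%, and the ratio at 21 months was 0.806. In a bulk sample, fewer cells of a type and less RNA per cell cannot be told apart.

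Of the 82 members, 56 had a count in at least 1 library and 26 had 0 counts in every library, where 3 counts, the limit that a count of 0 allows, correspond to between 2.48 (3 months) and 4.12 (15 months) normalised counts. 33 members, from 12 subfamilies, reached 20 counts in a library, and all of these had a count in every library. Between 42 (15 months) and 49 (21 months) members had a count in a single library. Since each transcript gives its capped end only once, gene length does not enter these counts, and levels can be compared between genes as far as their ends are unique in the genome. Of the 33 members, 16 had no stretch of 35 bases within the first 100 transcribed bases that recurs in the genome with at most 1 mismatch, while in 13 most such windows recur and in 6 all of them do. The tables count uniquely aligned reads only, and between 72.2% and 76.7% of the records of a library were not unique.

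Cyp2e1, which oxidises ethanol, acetone and acetaminophen (chr7:147949638-147960874, plus strand), was the top member at every age. It had 12112, 15003, 8264 and 11353 counts at 3, 9, 15 and 21 months, or 10003, 12670, 11347 and 11856 normalised counts, and ranked between 7th and 10th among all genes. These values vary by 1.27-fold over the libraries. It took 33.3% of all P450 counts at 3 months (95% Wilson interval 32.8% to 33.8%), 38.4% at 9 months (37.9% to 38.9%), 42.0% at 15 months (41.3% to 42.7%) and 42.3% at 21 months (41.7% to 42.9%). Its share of the P450 pool was thus higher at each older age than at 3 months, with 15 and 21 months within each other's interval. This share does not depend on the scale of the libraries. The ratio of its own normalised counts to 3 months was 1.27 at 9 months (95% Clopper-Pearson interval 1.24 to 1.30), 1.13 at 15 months (1.10 to 1.17) and 1.19 at 21 months (1.16 to 1.22). These ratios were beyond counting error and below 1.5-fold.

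**Figure D1:**
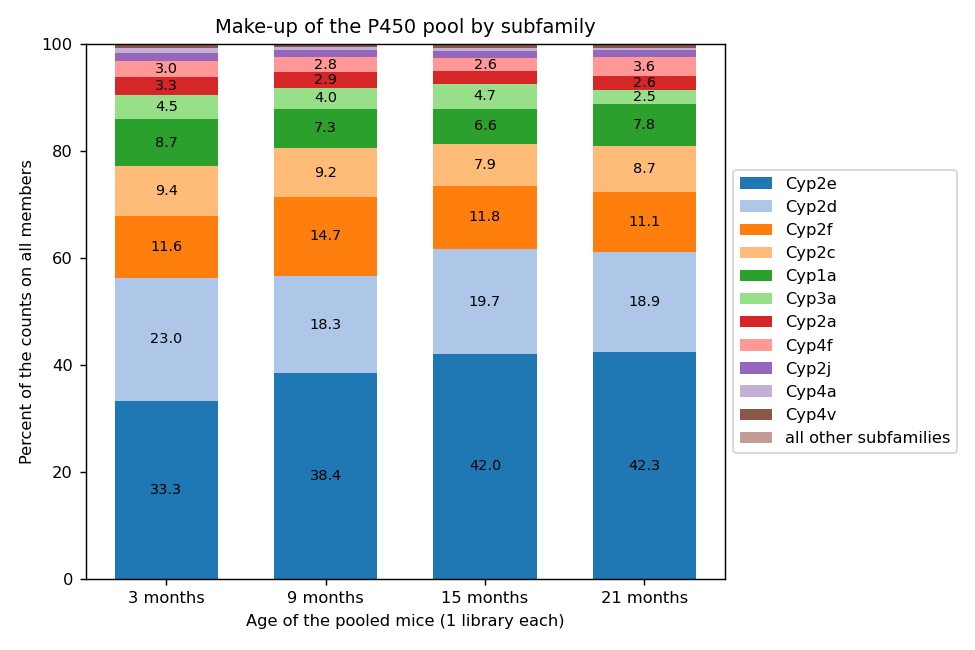
Share of each subfamily in all counts on the 82 members (vertical axis, percent) in the 4 libraries (horizontal axis, age in months, 1 library per age). Cyp2e grows from 33.3% at 3 months to 42.3% at 21 months, while Cyp2d goes from 23.0% to 18.9% and Cyp3a from 4.54% to 2.498%.

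The second largest subfamily was Cyp2d, with 23.0% of the pool at 3 months and 18.9% at 21 months, followed by Cyp2f with 11.6% and 11.1%, Cyp2c with 9.40% and 8.66% and Cyp1a with 8.72% and 7.83%. Cyp3a took 4.54%, 3.96%, 4.67% and 2.498% at 3, 9, 15 and 21 months. Cyp4a took 0.973%, 0.54%, 0.452% and 0.373%, and was thus lowest at 21 months, with 100 counts against 354 at 3 months. As sums of normalised counts, Cyp4a was 1.64-fold lower at 9 months than at 3 months (95% interval 1.38 to 1.95), 2.39-fold lower at 15 months (1.89 to 3.05) and 2.80-fold lower at 21 months (2.24 to 3.53). Cyp3a was 1.95-fold lower at 21 months (1.78 to 2.14), with ratios of 0.958 and 0.924 at 9 and 15 months whose intervals include 1. Cyp2a was 1.61-fold lower at 15 months (1.45 to 1.80) and 1.35-fold lower at 21 months (1.23 to 1.49). Cyp4f went the other way at 21 months, with a ratio of 1.11 (1.02 to 1.22), after 0.778 at 15 months (0.699 to 0.865).

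In each library the order of the members was set by few genes. At 3 months, Cyp2e1, Cyp2d9, Cyp2f2, Cyp1a2, Cyp2c29, Cyp2d10, Cyp3a11, Cyp4f14 and Cyp2a5 followed each other, and each of these differed from the next gene in the order (exact binomial tests of 2 counts within the library, the largest p = 0.000946, for Cyp2a5 with 686 counts against Cyp2d26 with 568). From Cyp2d26 to Cyp2c44 neighbours could no longer be told apart, for example Cyp2d40 with 522 and Cyp2j5 with 519 counts (exact p = 0.951). Cyp2f2 stood second from 9 months on, but at 15 and 21 months its count did not differ from that of Cyp2d9 (exact p = 0.906 and 0.775). Of the 5′-end windows, 100% recur in the genome for Cyp2d9, 98.7% for Cyp2a5, 54.5% for Cyp2d10 and 0% for Cyp2f2. Since only uniquely aligned reads are counted, genes with recurring windows may miss reads, and the order given here is that of counts. Cyp3a11 stood seventh at 3 months and ninth at 21 months, where Cyp2c70 and Cyp2d26 were its neighbours.

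**Figure D2:**
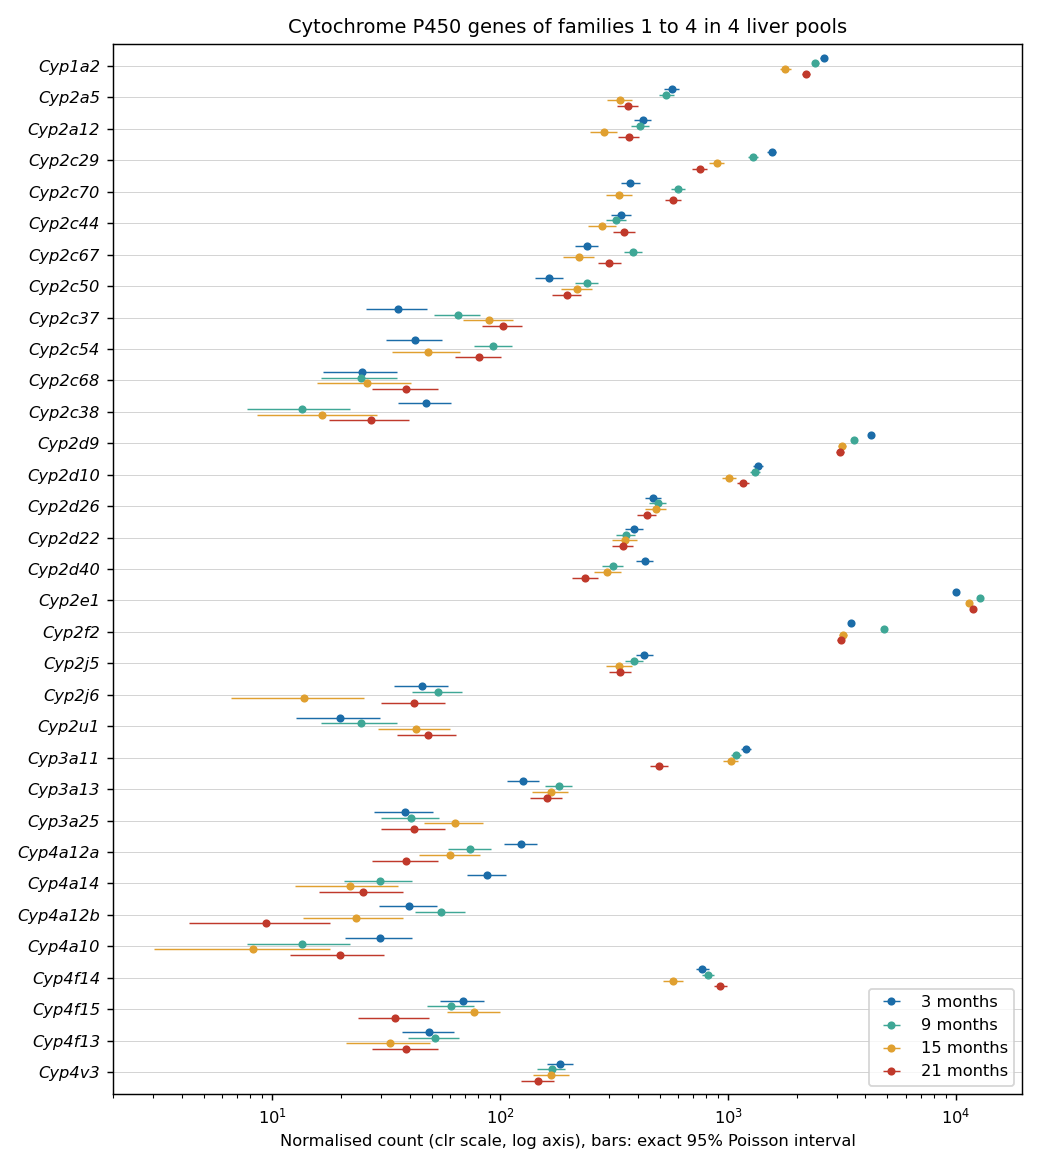
Normalised counts (horizontal axis, logarithmic) of the 33 members that reached 20 counts in a library, with 1 point per library and the exact 95% Poisson interval as a bar. Cyp2e1 lies at 10003 or above in every library, Cyp3a11 drops apart only at 21 months, and Cyp4a12b spans the widest range.

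Each older library was compared with the 3 month library. For each gene the 2 counts were set against the share expected from the scale factors in a two-sided exact binomial test, and p was adjusted by Benjamini-Hochberg over all genes with 20 or more counts in both libraries together. A gene was called when the adjusted p was below 0.05 and the ratio of normalised counts was at least 1.5 in either direction. Such a test compares libraries and not ages, and the 3 comparisons share the 3 month library. At 9 months, 4 of 33 tested members were called higher, with 5.38% of all genes tested being called higher, and 3 were called lower, with 6.61% of all genes. At 15 months, 2 of 33 were higher (4.75% of all genes) and 7 were lower (8.3%). At 21 months, 4 of 33 were higher (5.15%) and 8 were lower (6.64%). Members have more counts than most genes, which makes a call easier. Among genes with at least 200 counts in both libraries together, 3 of 21 members were called in either direction at 9 months against 15.7% of all such genes, 2 of 20 at 15 months against 22% and 5 of 20 at 21 months against 13.9%.

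Irrespective of the fold, 15, 19 and 20 members passed the adjusted p at 9, 15 and 21 months. These were 8 higher and 7 lower at 9 months, 3 higher and 16 lower at 15 months and 7 higher and 13 lower at 21 months. Of all genes, 15.6%, 16.5% and 14.8% passed it, without matching for depth. Members have more counts than most genes, which makes passing easier. The median log2 ratio over the 33 members was -0.04, -0.27 and -0.20 at 9, 15 and 21 months, with medians of -0.03, -0.13 and -0.04 over all genes tested.

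In all, 16 members were called in at least 1 comparison, 5 of them only as higher and 11 only as lower. Of the 4630 genes tested in all 3 comparisons, 26.2% were called in at least 1, without matching for depth. Cyp2c37, Cyp4a12a and Cyp4a14 were called in all 3 comparisons. With the 7 normalisation genes of the study as scale, the calls of Cyp2c37, Cyp2c67 and Cyp2c70 at 9 months were lost (log2 ratios of 0.72, 0.52 and 0.54).

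**Figure D3:**
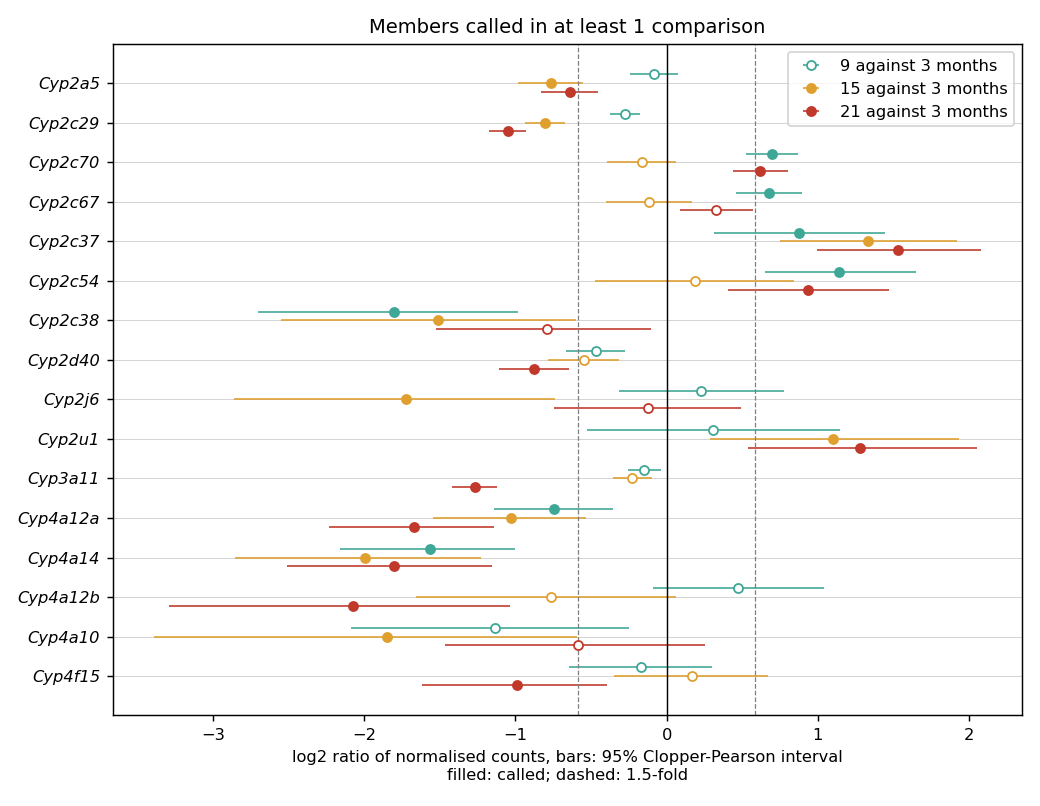
log2 ratio of normalised counts of each older library to the 3 month library (horizontal axis) for the 16 members called in at least 1 comparison, with 95% Clopper-Pearson intervals as bars, filled points for calls and dashed lines at 1.5-fold. Cyp4a12a and Cyp4a14 are filled on the left and Cyp2c37 on the right in all 3 comparisons.

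Cyp3a11, the PXR-induced gene that is the main counterpart of human CYP3A4 (chr5:146666002-146691540, minus strand), differed in the 21 month library alone among the called comparisons. It had 1451, 1281, 746 and 476 counts, or 1198, 1082, 1024 and 497 normalised counts at 3, 9, 15 and 21 months. The first 3 libraries lie close together and the last one lies apart. It was 2.41-fold lower at 21 months than at 3 months (95% interval 2.17 to 2.68, adjusted p = 1.46e-67 in the exact binomial test). At 15 months the ratio was 0.855 (0.781 to 0.934). None of its 5′-end windows recurs in the genome.

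Neither of the other tested Cyp3a genes was called at any age on the clr scale. Cyp3a13 had 153, 214, 121 and 153 counts, and its ratio at 21 months was 1.26 (1.004 to 1.59). Cyp3a25 had 46, 48, 46 and 40 counts, with a ratio of 1.66 at 15 months (1.08 to 2.56) and of 1.10 at 21 months (0.701 to 1.72). It was called higher at 15 months with library totals or the 7 normalisation genes of the study as scale. Among the remaining 6 Cyp3a members, Cyp3a59 had between 1 and 6 counts, Cyp3a16 had 1 count at 3 months, and Cyp3a41a, Cyp3a41b, Cyp3a44 and Cyp3a57 had 0 in every library.

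Cyp2c29, an epoxygenase of arachidonic acid that phenobarbital induces through CAR (chr19:39315441-39405189, plus strand), was lower in each older library. It had 1882, 1523, 649 and 718 counts, or 1554, 1286, 891 and 750 normalised counts. Its normalised counts thus declined at every step. It was 1.21-fold lower at 9 months (95% interval 1.13 to 1.29, below the fold for a call), 1.74-fold lower at 15 months (1.59 to 1.91, adjusted p = 9.96e-35 in the exact binomial test) and 2.07-fold lower at 21 months (1.90 to 2.26, adjusted p = 4.85e-65). Only 2% of its windows recur in the genome.

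In the same cluster, Cyp2c37 (chr19:40066909-40086738, plus strand), a further gene that phenobarbital induces, was higher in each older library. It had 43, 77, 65 and 98 counts, or 35.5, 65.0, 89.2 and 102 normalised counts, which increase at every step. Its ratio to 3 months was 1.83 at 9 months (95% interval 1.25 to 2.72), 2.51 at 15 months (1.68 to 3.79) and 2.88 at 21 months (1.99 to 4.23), with adjusted p of 0.0152, 7.18e-05 and 1.17e-07 in the exact binomial test. All of its 5′-end windows recur in the genome, shared with Cyp2c50, Cyp2c54 and Cyp2c55, so its counts are uncertain.

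Cyp2c54, which is one of the genes sharing these windows, had 51, 110, 35 and 77 counts, or 42.1, 92.9, 48.1 and 80.4 normalised counts. It was called higher at 9 months with a ratio of 2.21 (1.57 to 3.14) and at 21 months with 1.91 (1.32 to 2.78). At 15 months, in the shallowest library, it lay near the 3 month value. Cyp2c50 had 198, 284, 158 and 188 counts and its highest ratio was 1.47 at 9 months (1.22 to 1.77), just below the fold for a call.

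Cyp2c70, the enzyme that makes the muricholic acids of mouse bile (chr19:40227843-40261823, minus strand), was higher at 9 and 21 months, and none of its windows recurs. It had 451, 714, 242 and 548 counts, or 372, 603, 332 and 572 normalised counts. Its ratio was 1.62 at 9 months (1.44 to 1.83), 0.892 at 15 months (0.760 to 1.05) and 1.54 at 21 months (1.35 to 1.74). The 9 and 21 month libraries lie above the other two. Cyp2c67 had 290, 453, 161 and 288 counts and was called higher at 9 months only, with a ratio of 1.60 (1.38 to 1.86), and all of its windows recur.

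Cyp2c38, also an arachidonic acid epoxygenase (chr19:39464046-39537565, minus strand), had 57, 16, 12 and 26 counts, or 47.1, 13.5, 16.5 and 27.2 normalised counts. It was 3.48-fold lower at 9 months (1.97 to 6.50) and 2.86-fold lower at 15 months (1.52 to 5.85), while the ratio of 0.577 at 21 months (0.348 to 0.932) was not called. These counts are low, and 40.9% of the windows of Cyp2c38 recur. With a minimum of 100 counts, Cyp2c38 was not tested at 9 or 15 months. Cyp2c44 had 410, 382, 204 and 335 counts with ratios between 0.827 and 1.03, and Cyp2c68 had 30, 29, 19 and 37 counts with ratios between 0.989 and 1.56. None of these 6 ratios was called. The other 6 Cyp2c members had at most 6 counts in a library, with Cyp2c40, Cyp2c65 and Cyp2c66 at 0 everywhere.

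**Figure D4:**
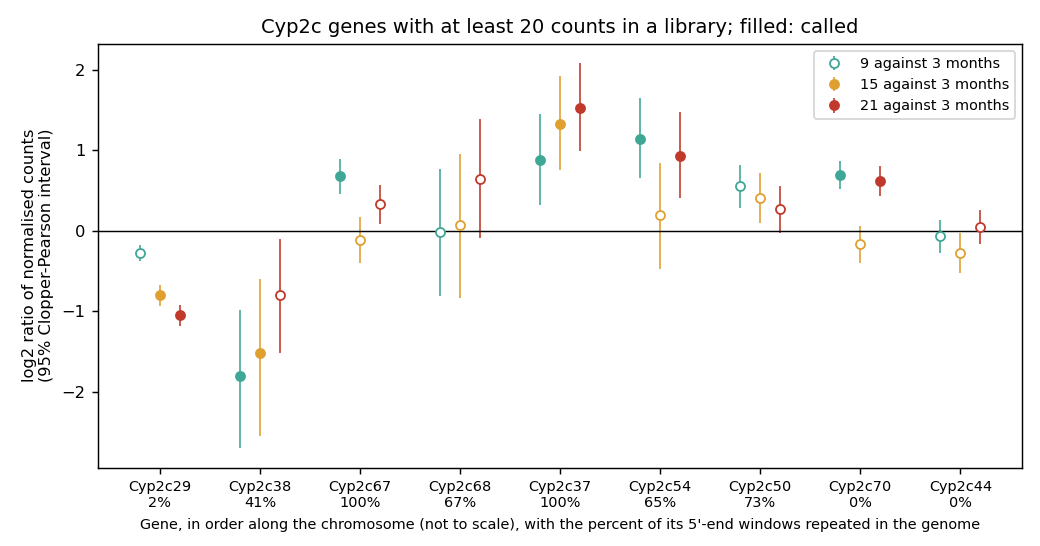
log2 ratio to the 3 month library (vertical axis, 95% Clopper-Pearson intervals) for the 9 Cyp2c genes that reached 20 counts, in their order along chromosome 19 (horizontal axis, not to scale), with the share of 5′-end windows that recur in the genome under each name. Filled points are calls: Cyp2c29 and Cyp2c38 lie below 0, and Cyp2c37, Cyp2c54, Cyp2c67 and Cyp2c70 have calls above 0.

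In the Cyp4a cluster of fatty acid hydroxylases on chromosome 4, each of the 4 tested genes was called lower in at least 1 older library. Cyp4a14, a PPARα target (chr4:115158805-115168747, minus strand), had 106, 35, 16 and 24 counts, or 87.5, 29.6, 22.0 and 25.1 normalised counts. The 3 month library stands apart from the other 3, which lie within a narrow range. Cyp4a14 was 2.96-fold lower at 9 months (2.004 to 4.47), 3.98-fold lower at 15 months (2.34 to 7.22) and 3.49-fold lower at 21 months (2.23 to 5.69), with adjusted p of 1.66e-07, 1.44e-07 and 6.45e-08 in the exact binomial test. None of its windows recurs in the genome.

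Cyp4a12a, a male-predominant gene whose enzyme makes 20-HETE from arachidonic acid (chr4:114971651-115005420, plus strand), had 149, 87, 44 and 37 counts, or 123, 73.5, 60.4 and 38.6 normalised counts. It declined at every step and was 1.67-fold lower at 9 months (1.28 to 2.21), 2.04-fold lower at 15 months (1.45 to 2.92) and 3.18-fold lower at 21 months (2.21 to 4.70). Its neighbour Cyp4a12b (chr4:115084229-115111639, plus strand) had 48, 65, 17 and 9 counts, or 39.6, 54.9, 23.3 and 9.40 normalised counts. It was called at 21 months only, where it was 4.22-fold lower (2.05 to 9.78). All windows of both genes recur, since they share them with each other, and their counts are uncertain as single genes.

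Cyp4a10, a further PPARα target, had 36, 16, 6 and 19 counts and was called lower at 15 months (3.61-fold, 95% interval 1.51 to 10.5). At 9 months it was 2.20-fold lower (1.19 to 4.25, adjusted p = 0.0598 in the exact binomial test), which became a call with library totals or the 7 normalisation genes as scale. All of its windows recur, with Cyp4a31 and Cyp4a32, which had between 2 and 11 counts per library. Over these 4 Cyp4a genes of the PPARα list, counts summed to 157, 59, 28 and 54, or 130, 49.8, 38.4 and 56.4 normalised counts, again with the 3 month library on top. The remaining 3 Cyp4a members are pseudogene symbols and had 0 counts.

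In the Cyp2a subfamily, Cyp2a5, the coumarin hydroxylase (chr7:27620324-27628567, plus strand), had 686, 634, 243 and 348 counts, or 567, 535, 334 and 363 normalised counts. It was 1.70-fold lower at 15 months (1.46 to 1.97) and 1.56-fold lower at 21 months (1.37 to 1.78), while 9 months did not differ from 3 months (ratio 0.945, 0.847 to 1.05, adjusted exact p = 0.579). The hepatocyte marker sum was lowest at 15 months too, with 77051 normalised counts against 96067 at 3 months, and was 90670 at 21 months. The median log2 ratio of the 9 markers at 15 months was -0.12, with -0.13 over all genes tested. A link of Cyp2a5 to this sum was not tested. Of the windows of Cyp2a5, 98.7% recur, shared with Cyp2a4. Cyp2a12, a steroid hydroxylase, had 510, 485, 207 and 351 counts and was lowest at 15 months as well, with a ratio of 0.675 (0.571 to 0.795) just short of the fold for a call. Cyp2a4 had 10, 1, 0 and 5 counts and Cyp2a22 had 0.

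Of the 9 Cyp2d members, Cyp2d9, the male-predominant testosterone hydroxylase, was the most abundant, with 5146, 4223, 2304 and 2962 counts, or 4250, 3566, 3163 and 3093 normalised counts. It declined at every step, with a ratio of 0.728 at 21 months (0.695 to 0.762) that was beyond counting error and not called. Cyp2d40 (chr15:82590265-82594613, minus strand) had 522, 369, 215 and 225 counts, or 431, 312, 295 and 235 normalised counts, and was called 1.83-fold lower at 21 months (1.57 to 2.15). The windows of both recur, all of them for Cyp2d9 and 68.2% for Cyp2d40, and Cyp2d9 and Cyp2d40 share some with each other.

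Cyp2d26 and Cyp2d22, whose windows do not recur, varied least among the members with a count in every library. Cyp2d26 had 568, 580, 351 and 420 counts, or 469, 490, 482 and 439 normalised counts, a span of 1.12-fold. Cyp2d22 had 469, 420, 256 and 330 counts, or 387, 355, 351 and 345 normalised counts, again a span of 1.12-fold. For both genes every interval of the ratio to 3 months includes 1. Cyp2d10 had 1640, 1556, 736 and 1116 counts and was lowest at 15 months with a ratio of 0.746 (0.683 to 0.814, not called). The other 4 Cyp2d members had at most 11 counts in a library.

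Cyp1a2, an AHR target that oxidises caffeine and aromatic amines, had 3174, 2857, 1297 and 2099 counts, or 2621, 2413, 1781 and 2192 normalised counts. It was 1.47-fold lower at 15 months (1.38 to 1.57), which is beyond counting error and short of the fold for a call. Cyp1a1 and Cyp1b1, the strongly inducible AHR targets, had 1 count each at 21 months and 0 in the other libraries. Cyp2f2, known for the oxidation of naphthalene, had 4206, 5729, 2313 and 2985 counts, or 3474, 4838, 3176 and 3117 normalised counts. Its 9 month value stands above the others, with a ratio of 1.39 (1.34 to 1.45, not called).

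Cyp2u1, a hydroxylase of long-chain fatty acids (chr3:130993409-131006145, minus strand), was, with Cyp2c37, one of 2 members whose normalised counts increased at every step. It had 24, 29, 31 and 46 counts, or 19.8, 24.5, 42.6 and 48.0 normalised counts, and was called at 15 months with a ratio of 2.15 (1.22 to 3.82) and at 21 months with 2.42 (1.45 to 4.15). The counts are low and the intervals are wide, and with a minimum of 1 count the adjusted p at 15 months went from 0.0445 to 0.0905 in the exact binomial test. In the Cyp2j subfamily of epoxygenases, Cyp2j6 had 55, 63, 10 and 40 counts and was 3.31-fold lower at 15 months (1.67 to 7.28), with a ratio of 0.920 at 21 months (0.596 to 1.41). Cyp2j5 had 519, 458, 242 and 321 counts with ratios between 0.775 and 0.902, none of them called. The other 6 Cyp2j members had at most 1 count.

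Cyp4f14, a hydroxylase of leukotriene B4, had 933, 967, 417 and 883 counts, or 771, 817, 573 and 922 normalised counts, and was lowest at 15 months and highest at 21 months without a call. Cyp4f15 (chr17:32822572-32840297, plus strand) had 83, 72, 56 and 33 counts, or 68.5, 60.8, 76.9 and 34.5 normalised counts, and was 1.99-fold lower at 21 months (1.31 to 3.07). Cyp4f13 had 59, 61, 24 and 37 counts and was not called. Calls in this subfamily were thus limited to Cyp4f15 at 21 months. Cyp4v3, a fatty acid hydroxylase that is the counterpart of human CYP4V2, had 222, 199, 122 and 140 counts and was not called, with a ratio of 0.797 at 21 months (0.641 to 0.990).

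The 23 members with counts below 20 in every library carried little of the pool. Cyp4b1 had 9, 8, 8 and 7 counts, and Cyp2r1, a vitamin D hydroxylase, had 0, 1, 0 and 10. Cyp4f18 had 7, 0, 1 and 0 counts and Cyp4f17 had 5, 4, 11 and 4. Among the Cyp2b genes, which phenobarbital induces, Cyp2b10 had 1 count at 9 months and Cyp2b9 had 3 at 21 months, with Cyp2b13, Cyp2b19 and Cyp2b23 at 0. Of the 26 members with 0 counts, 9 had no recurring window. Of the 8 female-predominant P450 genes listed, 4 had a count, and these summed to 13, 1, 0 and 11 counts. Between 53.0% (Cyp3a44) and 100% of the windows of each of these 8 genes recur in the genome, so their unique counts may miss reads. All windows of the male-predominant Cyp2d9, Cyp4a12a and Cyp4a12b recur too, and 0% of those of Cyp2u1. The male-predominant list, with Cyp2d9, Cyp2u1, Cyp4a12a and Cyp4a12b, summed to 5367, 4404, 2396 and 3054 counts. At 21 months 1 of its 4 genes was called higher (Cyp2u1) and 2 lower (Cyp4a12a and Cyp4a12b).

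Grouped by the receptor that controls them, the AHR list had 1 tested gene, Cyp1a2, and no call in any of the 3 comparisons (exact binomial test, adjusted p of 0.0132, 5.49e-31 and 1.12e-08, with the ratios below 1.5-fold). The CAR and PXR list had 3 tested genes, of which Cyp2c37 was higher in all 3 comparisons, Cyp2c29 lower at 15 and 21 months and Cyp3a11 lower at 21 months. The list therefore had calls in both directions. The PPARα list had 2 tested genes, with Cyp4a14 lower in all 3 comparisons and Cyp4a10 lower at 15 months. The medians of log2 ratios at 21 months were -0.26, -1.05 and -1.19 for these lists and -1.06 for the male-predominant list, with -0.04 over all genes tested. These medians rest on only 1, 3, 2 and 4 genes, and Cyp2c37 (log2 ratio 1.53) and Cyp2u1 (1.28) went the other way. The lists were chosen with earlier results of these data known, so the medians do not stand for all targets of a receptor.

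Among transcripts of proteins that serve the P450 enzymes there were 4 calls at 9 months, 2 at 15 months and 1 at 21 months. Of all genes tested, 12%, 13.1% and 11.8% were called in either direction at these ages. Of 6 electron transfer partners tested, 2 were called higher at 9 months and 0 at 15 and 21 months. These were Cyb5, cytochrome b5, with 1193, 1851, 743 and 931 counts (ratio 1.59, 1.47 to 1.71) and Pgrmc2 with 17, 50, 23 and 22 counts (ratio 3.01, 1.71 to 5.56). Of the genes of heme synthesis and breakdown, Alas1, the rate-limiting enzyme of heme synthesis, and Fech, ferrochelatase, were higher at 9 months among 9 tested. Alas1 had 226, 341, 160 and 214 counts (ratio 1.54) and Fech had 66, 105, 61 and 81 (ratio 1.63). Blvrb, a biliverdin reductase, was lower at 15 and 21 months among 8 tested, with 102, 81, 36 and 43 counts, and Alad was lower at 15 months, with 46, 47, 11 and 34 counts.

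The receptors and factors that act on P450 genes gave 3 calls at each age, of 19, 18 and 17 tested, which is near the share of all genes called. Ahr had 26, 9, 3 and 22 counts and was lower at 9 and 15 months. Nr3c1, the glucocorticoid receptor, had 20, 38, 33 and 40 counts and was higher at 15 and 21 months, with ratios of 2.74 (1.53 to 5.04) and 2.53 (1.44 to 4.57). Nr1h4, the bile acid receptor FXR, was higher at 9 months (ratio 1.51), when Dbp was lower (55 and 27 counts at 3 and 9 months). Nr1h3 was lower at 15 months (77 and 21 counts). At 21 months Stat5b, which carries the growth hormone signal, was higher with 18 and 35 counts at 3 and 21 months, and Cebpa was lower with 118 and 51. The genes of PXR, CAR and PPARα, Nr1i2, Nr1i3 and Ppara, were not called in any comparison.

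A linear change with age over all 4 libraries was tested with edgeR's quasi-likelihood test. Its error is the spread of the libraries around the line, shared in part over the genes tested (common dispersion 0.0733). A single gene leaves only 2 residual degrees of freedom. The p and standard error of a member thus rest in part on the spread of other genes. Of 5569 genes tested, 3 rose and 3 fell at an adjusted p of 0.05, which is 0.0539% in each direction, and 0 of the 33 members were among them. The smallest adjusted p of a member in the edgeR test was 0.192, for Cyp4a14. At an unadjusted p of 0.05, 9 members passed (27.3%), 7 falling and 2 rising, against 290 of all genes (5.21%), without matching for depth. With the 3 month library left out of the edgeR test, 3 members passed the unadjusted p, and with any other age left out 8 or 9 did. DESeq2's Wald test of the slope gave 0 members at the adjusted p and 8 at the unadjusted one. The 7 falling genes were Cyp2a5, Cyp2c29, Cyp2d40, Cyp3a11, Cyp4a12a, Cyp4a12b and Cyp4a14 and the 2 rising ones Cyp2c37 and Cyp2u1.

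The fitted changes over the 18 months came with wide errors. Cyp4a14 had a log2 change of -1.84 with a standard error of 0.51, Cyp3a11 one of -1.07 with 0.37 and Cyp2c37 one of 1.52 with 0.46. Cyp2e1 had a log2 change of 0.21 with a standard error of 0.32, which is smaller than its error.

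The variance of clr over the 4 ages, the stability measure of the study, had a median of 0.0672 over the 40 members with a count in every library and of 0.160 over all 8704 such genes. 25 of the 40 members lay below the median variance of all genes and 33 above the median of the mean clr, so most were abundant. Counting error alone gives a variance of about 0.0003 for Cyp2d9 and 0.467 for Cyp3a59, so few counts mean a larger variance. The part of depth in the lower median of the members was not tested. The lowest variances were those of Cyp2d26 (0.00237) and Cyp2d22 (0.00268), followed by Cyp4v3 (0.00874), Cyp2c44 (0.00961) and Cyp2e1 (0.00993). Counting error alone gives about 0.00218 for Cyp2d26 and 0.00286 for Cyp2d22, so their order is not resolved. The highest among the 33 members with at least 20 counts in a library was that of Cyp4a12b (0.594), followed by Cyp4a14 (0.399) and Cyp2j6 (0.383).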

How the data were processed

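Liver RNA of C57BL6 mice (C57BL/6Rj in the study's methods) in 4 age classes, from 3 to 21 months (1 pool of 24 mice each), had been sequenced from capped 5′-ends on a SOLiD 5500xl instrument in reads of 35 bp. The authors mapped reads to mm9 with the CLC Genomic workbench, and HTSeq is named in the submitters' processing notes; counting settings are not given in the sources used here. The deposited values are raw counts of uniquely aligned reads per gene symbol, without normalisation. Rows of reads not assigned to a gene (between 91.6% and 93.3% of records) were left out.

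Libraries were scaled by the geometric mean over genes with a count in every library (clr, natural logarithm, variance with divisor 3). Ratios to 3 months were tested as in the report. A linear age term was fitted with edgeR 4.0.16 (quasi-likelihood test, TMM, filterByExpr) and, as an alternative, DESeq2 1.42.0, in R 4.3.3. Other steps ran in Python 3.11.15 (scipy 1.17.1, pandas 2.3.3, numpy 2.4.6, and for plots matplotlib 3.10.9). The edgeR age test and the exact binomial test of an older library against 3 months were tried on simulated data. In the trial of the exact test, counts had counting error only. DESeq2's Wald test and the exact tests between members within a library were not tried in this way. Results of these trials are not given here. Intervals and limits cover counting error only, since reads carry no molecular identifiers and there is 1 library per age. Positions are from GENCODE M1 (NCBIM37), and 35-base windows of the first 100 transcribed bases were searched in NCBIM37 with at most 1 mismatch.

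Named members are those with at least 20 counts in a library. The members and the gene lists (P450 genes by receptor and by sex, electron transfer, heme, receptors, and markers of 8 cell types or zones) were chosen with earlier results of these data known. Alternatives were library totals, TMM, DESeq2 size factors, 7 normalisation genes of the study as scale, minimum counts of 1 and 100, 2-fold, leaving out each age, and shares without Cyp2e1 or the 10 most abundant genes. The restriction to members with few repeated windows was chosen after seeing the data.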

Additional observations from a re-analysis of the deposited data

How the results depend on the processing

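No paired analysis was possible because there is 1 library per age. Members called higher at 9 months numbered 4, and 1 with the 7 normalisation genes as scale, 1 at 2-fold and 1 among members with few repeated windows (Cyp2c70). Members called lower at 9 months numbered 3, and 5 with the 7 genes, and the median log2 ratio went from -0.04 to -0.20 (all genes -0.19). On that scale Cyp2c37, Cyp2c67 and Cyp2c70 lost their call at 9 months (log2 0.72, 0.52 and 0.54), and Cyp2d40 and Cyp4a10 became lower. At 15 months 2 higher members became 1 with a minimum of 100 counts, 1 with a minimum of 1 count (both without Cyp2u1) and 1 with few repeated windows, and 7 lower became 4 with a minimum of 100 counts and 4 with few repeated windows. At 21 months 4 higher became 2 at 2-fold and 2 with few repeated windows, and 8 lower became 5 and 4. No member had an age trend with any age kept or left out, except 1 falling member, Cyp4a14 (edgeR adjusted p = 0.0393), without 21 months, so counts ranged from 0 to 1. Without the 10 most abundant genes in the denominator the P450 share was 5.10%, 5.75%, 5.09% and 5.03%, and without Cyp2e1 2.54%, 2.51%, 2.17% and 2.10%. Of 396 ratios of named genes under another scale, 379 kept direction and call, 3 lost and 6 gained a call, and 8 uncalled ones turned sign: at 9 months Cyp2c68 (0.0224, TMM) and, with the 7 genes, Cyp2d26 (-0.10), Cyp3a25 (-0.0638), Cyp4f13 (-0.0771) and Cyp4f14 (-0.0735), and at 15 months Cyp2c67 (0.0135 with library totals and 0.0146 with the 7 genes) and Cyp2f2 (0.000886, 7 genes). The 7-gene scale moved the median of all genes by 0.157 on the log2 scale at 9 months, and library totals moved it by 0.129 at 15 months; other causes of lost calls were not tested. Depth limits members below 20 counts, and a single pool per age limits every comparison.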
